A study of Mus musculus with 2 samples.

Results

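The members described here were 10 genes of bone morphogenetic protein (BMP) signalling, chosen by gene symbol from the 32285 genes of the deposited count matrices: 5 ligand genes (Bmp2, Bmp4, Bmp6, Gdf10 and Inhbb), the receptor genes Acvrl1 and Eng, the inhibitor gene Smad6 and the target genes Id1 and Id3. All 10 were found. They were read in single endothelial cells, the cells that line vessels, sorted from lymph nodes of WT and Xbp1-KO mice. Every animal, controls included, had been given tamoxifen, a drug that activates inducible forms of Cre recombinase; which Cre line, which part of Xbp1 was removed, and the number, age and sex of the animals are not given in the labels. Each of the 2 libraries held 4 pools marked by hashtag antibodies, one for each genotype (WT or Xbp1-KO) and each site (peripheral or mesenteric nodes), so that 8 pools were compared. Cells of peripheral nodes were freed by enzymes and cleared of CD45-positive blood cells with magnetic beads before the sort.

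BMPs are secreted dimers of the TGF-beta family. They bring type I and type II serine/threonine kinase receptors together on the receiving cell, the type I receptor phosphorylates SMAD1, SMAD5 or SMAD8, and these enter the nucleus with SMAD4 and switch on the Id genes and the inhibitory SMADs. In blood vessels the type I receptor ALK1 (gene Acvrl1) with its co-receptor endoglin (gene Eng) carries the response to BMP9 and BMP10 of the circulation, and loss of either gene causes malformed vessels. In a lymph node, lymphatic endothelium forms the ceiling of the subcapsular sinus, its floor and the medullary sinuses, while blood endothelium includes arteries, capillaries, veins and the high endothelial venules through which lymphocytes enter.

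After filters 9021 endothelial cells remained, 3704 lymphatic and 5317 blood endothelial, from libraries of 33024170 and 14744778 unique molecular identifiers (UMIs, each marking one captured RNA molecule). The members and the other pathway genes were left out when the cells were clustered. Lymphatic subsets were a floor-like one (1257 cells, led by Postn or Ccl20), a ceiling-like one (1025, led by Ackr4), a medullary-like one (543, led by Marco), a Ptx3-like one (386) and an unnamed cluster led by Igfbp5, Lcn2 and Nts (493, called the Nts cluster here). Blood subsets were arterial-like (729), capillary (1494), high endothelial-like (493) and venous-like (95) cells, with 2 unnamed clusters led by Aqp1 (1401) and Hspa1a (1105). The UMIs of a subset were summed within each pool and expressed as CPM (the gene's UMIs relative to all UMIs of the sum, on the usual CPM scale). Levels are given as mean ± SD over pools with at least 10 cells. Only 4 pools reached this in venous-like cells, and the WT mesenteric pool of library 2 fell short in medullary-like and Ptx3-like cells with 5 and 3 cells. Labels do not state that pools came from separate animals, so the p-values refer to these pools and not to animals. The tests also share information on spread across genes, and subset contrasts had pools as blocks. A p-value is therefore no measure of 1 gene's own spread between pools. Xbp1 itself stood at 129 ± 9.05 CPM in the 3 WT and 45.1 ± 9.11 CPM in the 4 Xbp1-KO medullary-like sums, and at 379 ± 96.5 and 228 ± 68.5 CPM in the 4 WT and 4 Xbp1-KO high endothelial-like sums, which overlapped (271 to 494 and 154 to 320). Capillary sums also overlapped, at 186 ± 39.7 and 117 ± 48.8 CPM. In floor-like cells it was at 106 ± 48.8 and 47.0 ± 4.36 CPM, with 1 WT pool (39.5 CPM) below every Xbp1-KO pool, and in ceiling-like cells at 96.6 ± 27.8 and 62.6 ± 16.6 CPM, with overlapping ranges. Since 3′ counts may lie outside the deleted part, this is no full check of the deletion.

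Lymphatic and blood endothelium differed in most members. The ligand genes Bmp2, Gdf10 and Bmp4 were higher in lymphatic cells, and the ligand gene Inhbb in blood endothelium. The receptor, inhibitor and target genes were also higher in blood endothelium. By edgeR's quasi-likelihood test with Benjamini-Hochberg adjustment, 9 of the 10 members differed, where 59.6% of all genes tested did. Bmp2, Gdf10 and Bmp4 were higher in lymphatic cells by log2 fold changes of 5.54 ± 0.24 (SE), 6.46 ± 0.21 and 2.42 ± 0.27. Inhbb, Id1, Smad6, Id3, Acvrl1 and Eng were lower, by -6.18 ± 0.30, -5.58 ± 0.18, -5.33 ± 0.33, -3.10 ± 0.11, -1.82 ± 0.08 and -1.67 ± 0.07. Without library 1 the Gdf10 difference was 7.97 and that of Smad6 -6.08. Bmp6 was the exception, at 14.7 ± 8.77 CPM in lymphatic and 17.4 ± 6.95 CPM in blood cells (edgeR adjusted p = 0.0835). Without the filter on low counts it was called, at -0.42 ± 0.15 (edgeR adjusted p = 0.0138). The members' median log2 difference was -1.75, beside 0.05 over all genes. The subsets were found in the same cells, so these tests describe clusters made without the members rather than groups set by the study.

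**Figure D1:**
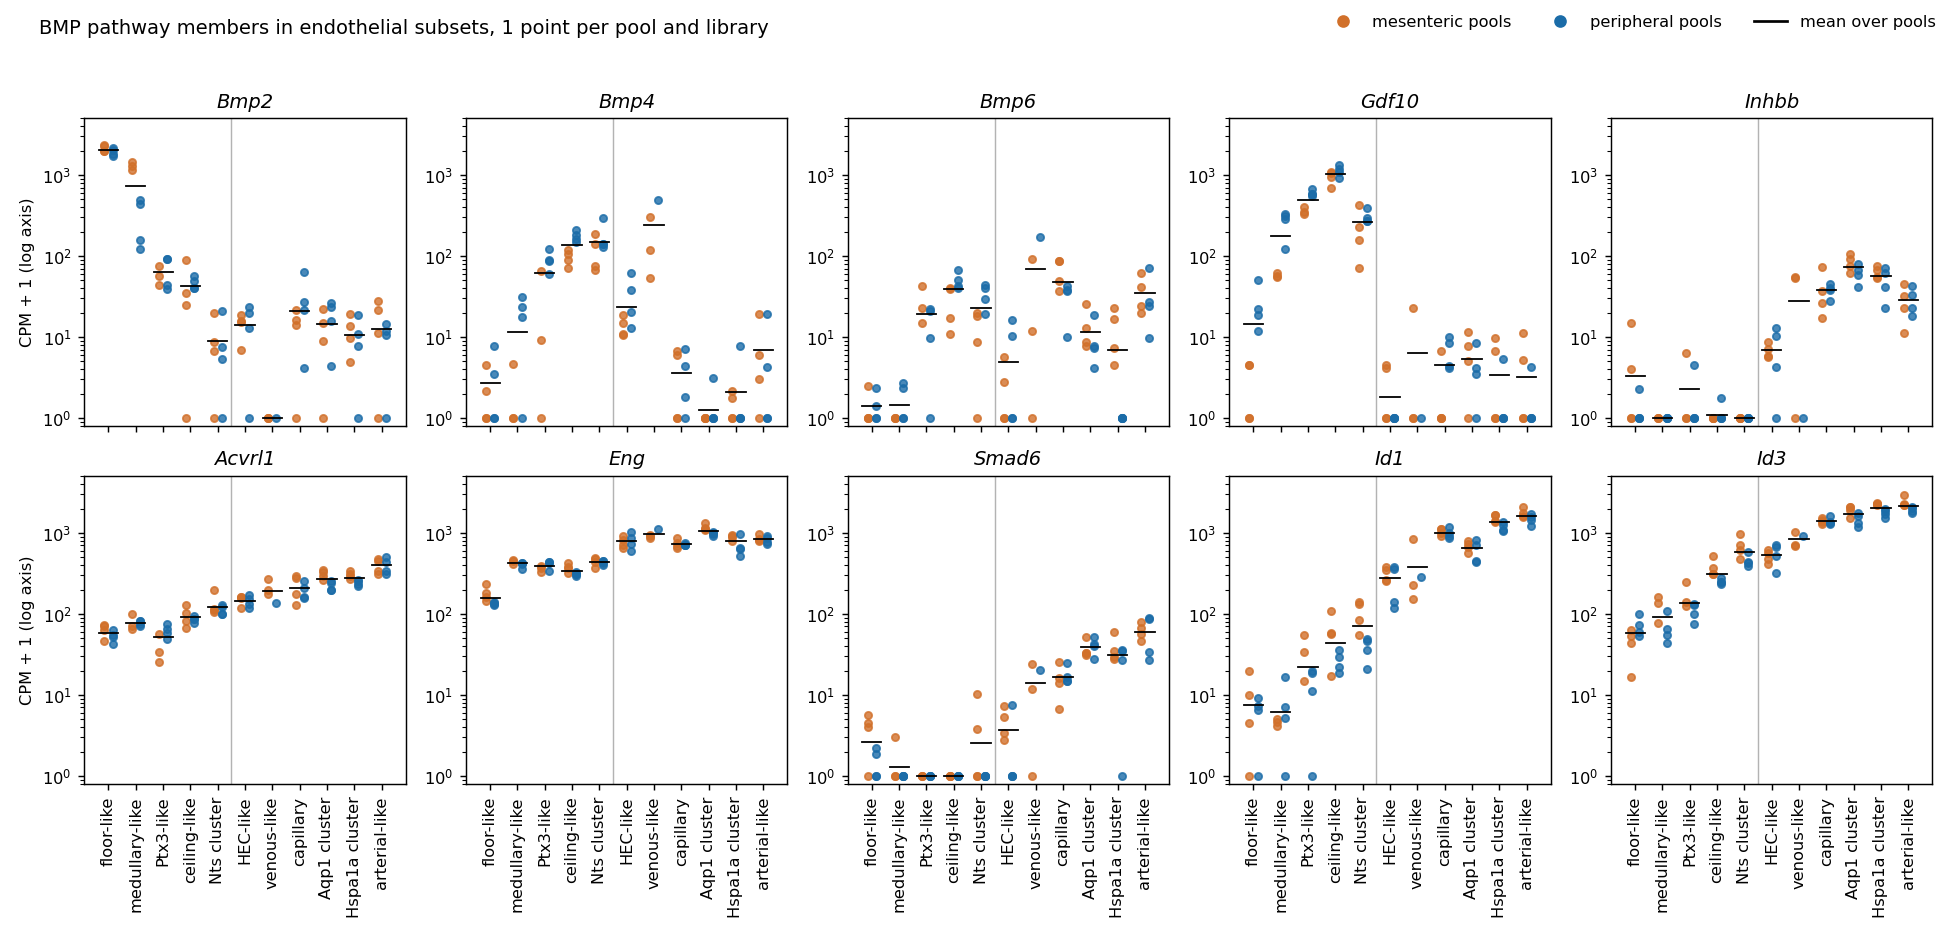
CPM + 1 on a log axis for each of the 10 members in 11 endothelial subsets, with lymphatic subsets left of the grey line and blood subsets right of it; each point is 1 pool of 1 library and black lines are means. Bmp2 is highest in floor-like cells and Gdf10 in ceiling-like cells, while Acvrl1, Eng, Smad6, Id1 and Id3 have higher means in every blood subset than in floor-like cells. For Smad6 the high endothelial-like and floor-like means (2.67 and 1.66 CPM) rest on few UMIs, and the ranges overlap.

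Bmp2, a ligand that signals mainly through the receptors ALK3 and BMPR2, was a gene of the floor. Its level in floor-like cells ran from 1717 to 2331 CPM over the 8 pools with a mean of 2029 ± 211 CPM. Medullary-like cells followed at 729 ± 559 CPM (n = 7, from 120 to 1465). Neither range overlapped the next in the order. Ptx3-like cells were at 62.4 CPM and ceiling-like cells at 41.4 CPM on average, with overlapping ranges, and no blood subset had a mean above 20.2 CPM. In venous-like cells no UMI was found among 373509, which allows up to 8.03 CPM. After each cell was thinned to 1500 UMIs, 86.1% of floor-like cells held a Bmp2 UMI, with a 95% exact binomial interval of 84.1 to 88.0%, against 1.22% of high endothelial-like cells. Median depths were 5370 and 7515 UMIs and the shares before thinning 95.9% and 7.71%; intervals cover counting error only. Floor-like cells exceeded ceiling-like cells by a log2 fold change of 5.49 ± 0.13 (edgeR adjusted p = 5.37e-30) and medullary-like cells by 1.92 ± 0.22 (1.2e-07), the latter 2.56 without library 1.

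The floor-like subset joined a cluster led by Postn and a cluster led by Ccl20, and Bmp2 was high in both. The Postn cluster gave 1708 to 2413 CPM over its 6 sums and the Ccl20 cluster 1432 to 2371 CPM over 6, so their ranges overlapped. The clusters came from different nodes: the Postn cluster held 94.1% of the floor-like cells of peripheral nodes, and the Ccl20 cluster 87.6% of those of mesenteric nodes.

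Gdf10, a divergent BMP-family ligand also called BMP3b, was a gene of the ceiling. It stood at 698 to 1343 CPM in the 8 ceiling-like sums (mean 1038 ± 193), then at 497 CPM in Ptx3-like, 263 CPM in Nts cluster, 175 ± 129 CPM in medullary-like and 13.3 CPM in floor-like cells. No blood subset had a mean above 5.40 CPM. The lowest ceiling-like sum lay above the highest Ptx3-like sum, 668 CPM. Ceiling-like cells exceeded floor-like cells in all 8 pools (the log2 difference of floor minus ceiling was -6.21 ± 0.19, edgeR adjusted p = 9.42e-27) and medullary-like cells by 2.86 ± 0.23 (1.8e-10). Thinned to 1500 UMIs, 75.0% of ceiling-like cells and 2.00% of floor-like cells held a Gdf10 UMI, at nearly equal median depths of 5332 and 5370 UMIs; in high endothelial-like cells it was 0 of 492 cells, which allows up to 0.747% of cells with a UMI at that depth. Before thinning the shares were 94.7%, 4.93% and, in high endothelial-like cells at a median of 7515 UMIs, 1.01%.

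Bmp4 and Bmp6 were also higher in ceiling-like than in floor-like cells, at lower levels. Bmp4, which pairs with the same receptors as Bmp2, was at 71.3 to 211 CPM in ceiling-like sums and at 67.3 to 293 CPM in Nts cluster sums. In floor-like cells it was at 0 in the 4 pools of library 2 and at 1.18 to 6.73 CPM in those of library 1. The log2 difference of floor minus ceiling was -5.63 ± 0.21 (edgeR adjusted p = 6.56e-24). Without library 1 it was -8.90, fitted against floor-like pools that all held 0 UMIs. Of all subsets, venous-like cells had the highest Bmp4 mean, 244 ± 200 CPM. The Nts cluster (147 CPM) and ceiling-like cells (136 CPM) followed, with overlapping ranges. The 4 venous-like pools were at 119, 497, 307 and 53.4 CPM, from 74 UMIs. High endothelial-like cells had 9.60 to 61.5 CPM. Venous-like and high endothelial-like cells were both above capillary cells, which had 10 Bmp4 UMIs in all (log2 fold changes 6.79 ± 0.70, adjusted p = 5.67e-05, and 3.53 ± 0.60, adjusted p = 8.34e-06, both edgeR).

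Bmp6, the ligand by which liver endothelium controls hepcidin and thereby iron, gave few UMIs everywhere. Ceiling-like cells held 239 UMIs (9.83 to 66.9 CPM over 8 pools) and floor-like cells 3, a ratio of 99.0 with a 95% counting interval of 33.5 to 483. The fitted log2 difference of floor minus ceiling was -6.06 ± 0.36, -4.93 without library 1 and -6.98 without library 2. Medullary-like cells also held 3, for a ratio of 46.6 (15.8 to 228). Venous-like cells had the highest mean, 68.8 ± 80.3 CPM, from sums of 10.8, 172, 92.2 and 0 CPM. Arterial-like cells had 34.0 ± 21.9 CPM. Capillary cells had 47.2 ± 25.9 CPM, and within them Bmp6 was found mainly in 1 cluster. The cluster led by Fabp4 and Aqp7, genes of fatty acid and glycerol transport, held 152 of the 167 capillary UMIs, at 69.8 to 200 CPM over 8 sums. Those led by Col13a1 and by Apln had at most 12.3 CPM in any sum, so the ranges did not overlap. High endothelial-like cells had 8 UMIs and were below capillary cells by a log2 difference of -4.37 ± 0.48 (edgeR adjusted p = 1.11e-09). This was -5.87 without library 1 and -3.72 without library 2.

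Inhbb, the gene of the activin beta-B subunit, was found almost only in blood endothelium, with 760 UMIs there and 12 in lymphatic cells at similar totals (ratio 68.3, counting interval 38.8 to 133). Its means were 71.5 CPM in the Aqp1 cluster, 55.4 CPM in the Hspa1a cluster, 37.0 CPM in capillary and 27.5 CPM in arterial-like cells, with overlapping ranges from one to the next. High endothelial-like cells were lower, at 5.97 CPM (log2 difference from capillary -2.32 ± 0.36, edgeR adjusted p = 1.73e-06). Medullary-like cells held 0 Inhbb UMIs among 3292168, which allows up to 0.911 CPM, so capillary cells were at least 40.6-fold higher.

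UMIs of both receptor genes were found in every subset, and their means formed a gradient. Acvrl1, the type I receptor ALK1, had its highest mean in arterial-like cells, where it ran from 311 to 510 CPM (mean 395 ± 81.0). The Hspa1a and Aqp1 clusters followed at 273 ± 37.9 and 265 ± 57.2 CPM, with ranges overlapping from one to the next. Capillary cells had 206 ± 61.8 CPM, and the lymphatic means ran from 90.1 CPM in ceiling-like to 50.7 CPM in Ptx3-like cells among the named subsets. Arterial-like cells exceeded capillary cells by 0.95 ± 0.10 on the log2 scale (edgeR adjusted p = 9.46e-09). Levels moved with the library in these cells: arterial-like sums were 311 to 335 CPM in library 1 and 435 to 510 CPM in library 2.

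Eng, the co-receptor endoglin, had means of 725 to 1069 CPM in the blood subsets. Lymphatic means were 342 to 437 CPM except in floor-like cells, which had 157 ± 35.5 CPM (129 to 234) and did not overlap any other subset. Floor-like cells were below ceiling-like cells by -1.05 ± 0.10 and below medullary-like cells by -1.29 ± 0.12 on the log2 scale (edgeR adjusted p = 3.87e-12 and 1.94e-09). The floor-like subset, highest in Bmp2, was thus low in Eng, and it had 57.0 ± 11.1 CPM of Acvrl1, below ceiling-like cells by -0.57 ± 0.12 (8.06e-05). Without library 1 that Acvrl1 difference was -0.51 with edgeR adjusted p = 0.0633.

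The target genes Id1 and Id3 were high in blood endothelium and low in the lymphatic subsets with most Bmp2. Id2, read among the further genes below, differed the other way between floor-like and ceiling-like cells. Id1 and Id3 encode inhibitors of basic helix-loop-helix transcription factors and are classical direct BMP targets. Id1 stood at 1225 to 2096 CPM in arterial-like cells (mean 1621 ± 254), 1361 CPM in the Hspa1a cluster, which has Id1 among its leading genes, and 1009 ± 112 CPM in capillary cells. High endothelial-like cells were at 278 CPM, ceiling-like cells at 42.2 ± 31.0 CPM, floor-like cells at 6.40 ± 6.05 CPM and medullary-like cells at 5.22 ± 4.87 CPM. The floor and medullary ranges overlapped, and capillary sums ran from 852 to 1170 CPM. Floor-like cells were below ceiling-like cells by -1.81 ± 0.29 (edgeR adjusted p = 1.61e-06), and by -2.82 without library 1.

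Id3 also had its highest mean in arterial-like cells, 2168 ± 349 CPM. The Hspa1a cluster (2018 ± 307 CPM) and the Aqp1 cluster (1687 ± 333 CPM) came next, with ranges overlapping from one to the next. Capillary cells had 1407 ± 122 CPM. Lymphatic means included 314 ± 92.5 CPM in ceiling-like, 91.0 ± 43.9 CPM in medullary-like and 57.0 ± 23.9 CPM in floor-like cells. The Nts cluster had 574 CPM, within the range of high endothelial-like cells. Ceiling-like cells exceeded medullary-like cells by 1.79 ± 0.15 for Id3 and 1.93 ± 0.37 for Id1 (edgeR adjusted p = 3.65e-10 and 0.000171); the Id1 value was 3.56 without library 1. The floor and medullary levels of Id3 did not pass the test (-0.40 ± 0.17, 0.0891).

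Smad6, an inhibitory SMAD that blocks BMP type I receptors and is itself induced by the pathway, was found at low levels in blood endothelium. Arterial-like cells had the highest mean, 59.5 ± 23.2 CPM (26.1 to 87.0), and capillary cells had 15.7 ± 6.02 CPM, without overlap (5.68 to 24.2); the log2 difference was 1.98 ± 0.25 (edgeR adjusted p = 2.23e-07). Without library 1 it was 1.44 with edgeR adjusted p = 0.0552, and it was 1.13 at Leiden resolution 1.5 and 1.15 under the other hashtag rule. Ceiling-like cells held 0 Smad6 UMIs among 5626074, which allows up to 0.533 CPM, so arterial-like cells were at least 118-fold higher. All 3704 lymphatic cells together held 14 Smad6 UMIs.

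Upstream sequence is shown for the 5 members of the sequence table whose window holds no annotated exon: Smad6, Eng and Inhbb, high in blood endothelium, and Gdf10 and Bmp4, high in ceiling-like cells. Each is the 250 bases before the RefSeq gene start (build GRCm38.p6), written 5′ to 3′ on the gene's strand. Capitals mark 3 motifs known from SMAD binding, each searched on both strands. The motifs of the BMP-activated SMADs were GGCGCC and, as a relaxed form, the letters GGAGCC. The general SMAD element was spelled CAGAC. No motif contains another.
Smad6, chr9:64022060-64022309, minus strand: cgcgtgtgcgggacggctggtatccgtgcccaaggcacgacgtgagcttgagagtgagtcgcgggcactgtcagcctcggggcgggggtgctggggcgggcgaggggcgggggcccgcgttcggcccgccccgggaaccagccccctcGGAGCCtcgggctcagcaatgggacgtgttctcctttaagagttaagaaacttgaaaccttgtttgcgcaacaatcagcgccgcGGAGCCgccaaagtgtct
Eng, chr2:32646345-32646594, plus strand: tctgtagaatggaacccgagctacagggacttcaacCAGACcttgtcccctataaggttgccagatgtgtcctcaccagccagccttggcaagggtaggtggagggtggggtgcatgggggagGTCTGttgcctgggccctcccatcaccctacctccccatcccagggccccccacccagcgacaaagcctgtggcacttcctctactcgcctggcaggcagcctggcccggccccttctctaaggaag
Inhbb, chr1:119422249-119422498, minus strand: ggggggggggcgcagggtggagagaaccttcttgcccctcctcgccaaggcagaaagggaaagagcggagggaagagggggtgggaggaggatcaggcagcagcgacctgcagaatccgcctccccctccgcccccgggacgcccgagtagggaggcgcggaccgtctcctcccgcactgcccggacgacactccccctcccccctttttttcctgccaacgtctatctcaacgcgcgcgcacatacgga
Gdf10, chr14:33923337-33923586, plus strand: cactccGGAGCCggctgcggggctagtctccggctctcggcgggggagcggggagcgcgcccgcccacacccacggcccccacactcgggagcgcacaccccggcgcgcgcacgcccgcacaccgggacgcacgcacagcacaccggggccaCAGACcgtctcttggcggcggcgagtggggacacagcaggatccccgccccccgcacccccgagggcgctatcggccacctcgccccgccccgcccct
Bmp4, chr14:46390670-46390919, minus strand: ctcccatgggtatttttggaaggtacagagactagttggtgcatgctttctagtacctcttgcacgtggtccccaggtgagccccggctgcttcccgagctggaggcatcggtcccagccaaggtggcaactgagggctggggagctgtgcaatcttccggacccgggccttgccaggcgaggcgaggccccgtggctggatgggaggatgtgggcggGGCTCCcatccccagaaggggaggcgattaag

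Smad6 held GGAGCC at 102 and 18 bases before the start, Gdf10 at 244, and Bmp4 its reverse at 32. CAGAC lay 98 bases before the start of Gdf10, and Eng held it at 214 with its reverse at 127. The Inhbb window held none of the 3. GGCGCC was in none of the 7 members of the sequence table (the members above with Bmp6 and Id3). Of these 7, 4 held GGAGCC and 4 held CAGAC, on either strand. Over all 32851 promoters of the table the shares were 9.59% for GGCGCC, 26.0% for GGAGCC and 42.2% for CAGAC, so such letters are common, and a match is a description and not a site. Bmp2, Acvrl1 and Id1 are not among the entries. In the GENCODE M21 annotation of GRCm38, the members lie at chr2:133552159-133562885 (Bmp2), chr14:46383520-46390669 (Bmp4), chr13:38345107-38500302 (Bmp6), chr14:33923587-33937983 (Gdf10), chr1:119415465-119422248 (Inhbb), chr15:101128522-101145336 (Acvrl1), chr2:32646595-32682669 (Eng), chr9:63953076-64022059 (Smad6), chr2:152736251-152737410 (Id1) and chr4:136143497-136145755 (Id3).

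Set side by side, ceiling-like cells differed from floor-like cells in all 8 members tested, where 41.9% of all genes did. Bmp2 was higher in the floor; Gdf10, Bmp6, Bmp4, Id3, Id1, Eng and Acvrl1 were higher in the ceiling. Inhbb and Smad6 had too few UMIs to be tested. Ceiling-like and medullary-like cells differed in 7 of 8 members (38.2% of all genes): Bmp6, Bmp4, Gdf10, Id1 and Id3 were higher in the ceiling, and Bmp2 (-3.39 ± 0.25) and Eng (-0.29 ± 0.10, edgeR adjusted p = 0.0204) were higher in medullary cells. Without library 1 that Eng difference was -0.23 with edgeR adjusted p = 0.382, the Bmp2 one -2.69 and the Bmp6 one 6.88 (5.23 with both). The Eng difference was also not called without the filter on low counts (-0.25, edgeR adjusted p = 0.0872). Nor was it with the Nts cluster joined to ceiling-like cells (-0.1, 0.431). Floor-like and medullary-like cells differed in 4 of 6 members, with 28.6% of all genes: Bmp2 was higher in the floor and Gdf10 (-3.70 ± 0.19), Bmp4 (-2.06 ± 0.54) and Eng were higher in medullary cells. DESeq2 gave Bmp4 at -1.96 with adjusted p = 0.0693.

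**Figure D2:**
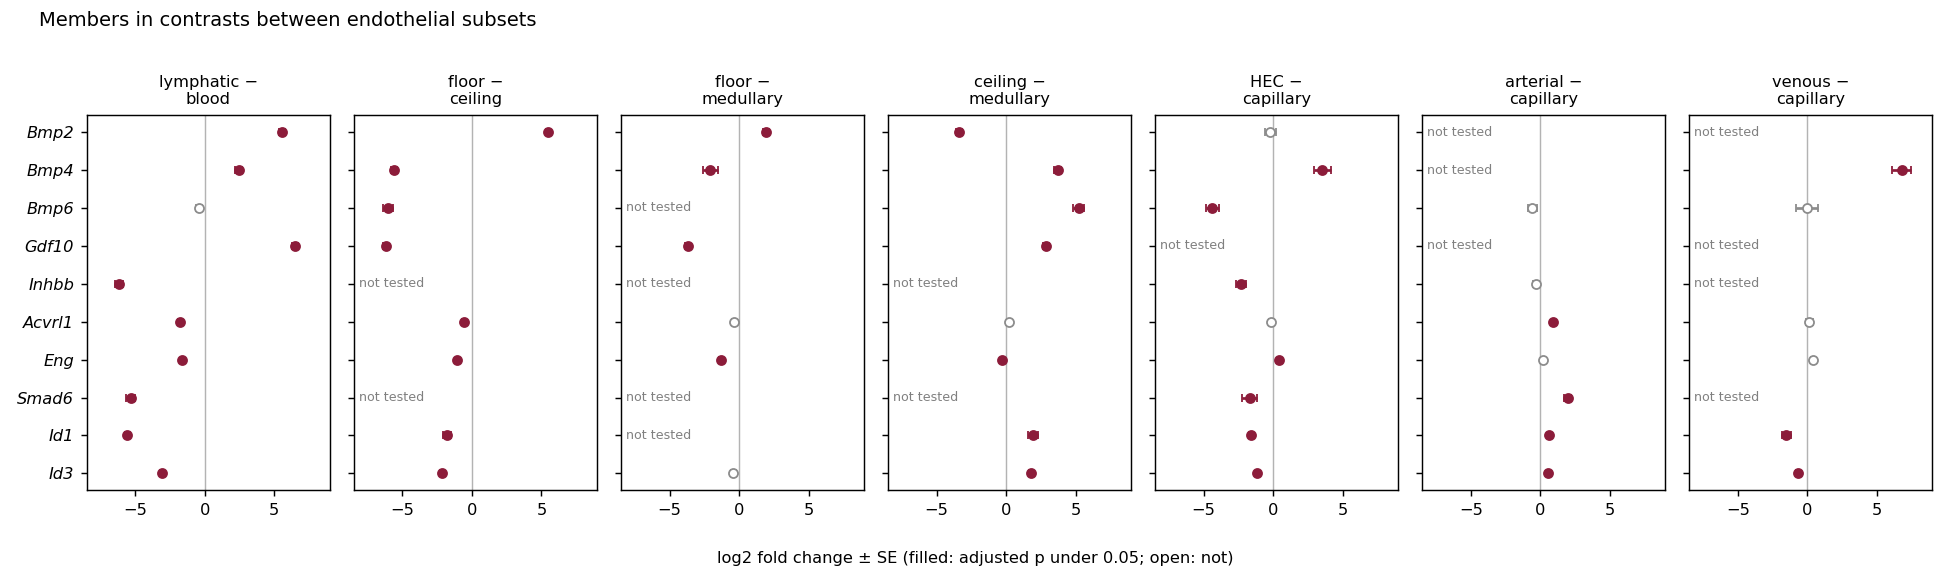
Log2 fold change ± SE from edgeR for each member in 7 contrasts between subsets; filled points have an adjusted p under 0.05, open points do not, and members with too few UMIs are marked as not tested. In the floor minus ceiling panel Bmp2 lies at 5.49 and Gdf10, Bmp6 and Bmp4 lie between -6.21 and -5.63.

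Within blood endothelium, targets fell from arterial-like to capillary to high endothelial-like cells. Arterial-like cells were above capillary cells in 4 of 7 members tested and below in 0 (20.6% of all genes differed): Smad6, Acvrl1, Id1 (0.65 ± 0.08) and Id3 (0.58 ± 0.08). At Leiden resolution 1.5 and under the other hashtag rule Id3 was at 0.24 and 0.31, still past the threshold. Acvrl1 was at 0.58 and 0.5 there, also past it, against 0.95 in the main fit. High endothelial-like cells, the cuboidal cells of the venules, differed from capillary cells in 7 of 9 members, with 34.3% of all genes. Bmp6, Inhbb, Smad6 (-1.70 ± 0.53), Id1 (-1.58 ± 0.13) and Id3 (-1.13 ± 0.10) were lower, and Bmp4 and Eng (0.41 ± 0.10) were higher. Without library 2, Smad6 was at -1.71 with edgeR adjusted p = 0.0943 and Eng at 0.34 with 0.063. Another rule for calling hashtags turned Eng to -0.15 (edgeR adjusted p = 0.343). At Leiden resolution 1.5 Eng was at 0.13 (edgeR adjusted p = 0.219) and Smad6 at -2.61 (3.81e-09), and Acvrl1, not called here, was at -0.59 (2.4e-05). Venous-like cells differed from capillary cells in 3 of 6 members, with 17.3% of all genes; Bmp4 was higher and Id1 (-1.51 ± 0.30) and Id3 (-0.69 ± 0.16) were lower. Without pools as a block Id1 was at -1.21 with edgeR adjusted p = 0.0534, and DESeq2 gave Id3 an adjusted p of 0.0559.

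Between lymph node sites, Bmp2 and Gdf10 changed in opposite directions in medullary-like cells. Bmp2 was at 1465, 1279 and 1161 CPM in the 3 mesenteric sums and at 434, 486, 120 and 159 CPM in the 4 peripheral ones. No peripheral value reached a mesenteric one, and in both libraries the mesenteric sums were higher. The log2 difference of peripheral minus mesenteric was -2.01 ± 0.22 (edgeR adjusted p = 4.25e-09). DESeq2 gave -2.15 with adjusted p = 0.103, and within library 1 alone the difference was -1.59.

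Gdf10 was at 55.7, 55.0 and 60.3 CPM in the mesenteric medullary-like sums and at 329, 288, 314 and 122 CPM in the peripheral ones, again without overlap. Its difference was 2.26 ± 0.23 (edgeR adjusted p = 7.13e-10). These 2 were the members called of 5 tested in medullary-like cells, where 4.67% of all genes were called. Acvrl1, Eng and Id3 did not pass (-0.11 ± 0.23, -0.12 ± 0.17 and -0.51 ± 0.23). Bmp4 fell under the filter on low counts there, at 0, 3.66 and 0 CPM in mesenteric and 16.6, 22.3, 0 and 30.6 CPM in peripheral sums, which overlapped. Without the filter it was called (4.63 ± 1.07, edgeR adjusted p = 0.00137), as it was without library 2 (3.63 ± 0.93, 0.00329). The 7 sums held 44 Bmp4 UMIs in all.

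Subset markers moved with the site in the same cells. In medullary-like cells Madcam1, a floor marker, was at 146 to 187 CPM in mesenteric and 0 to 34.4 CPM in peripheral sums, and Ackr4, the ceiling marker, at 0 to 5.96 and 40 to 85.1 CPM. Summed over the lists, floor markers (6 of 6 detected) were at 2293 to 2638 CPM in mesenteric and 1657 to 2062 CPM in peripheral sums. Ceiling markers were at 69.6 to 88.8 CPM (6 of 7 detected, Emp1 at 0) and 207 to 292 CPM (7 of 7). Marco, the medullary marker, was at 4603 to 5437 and 2007 to 2965 CPM. Their part in the Bmp2 and Gdf10 differences was not tested.

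**Figure D3:**
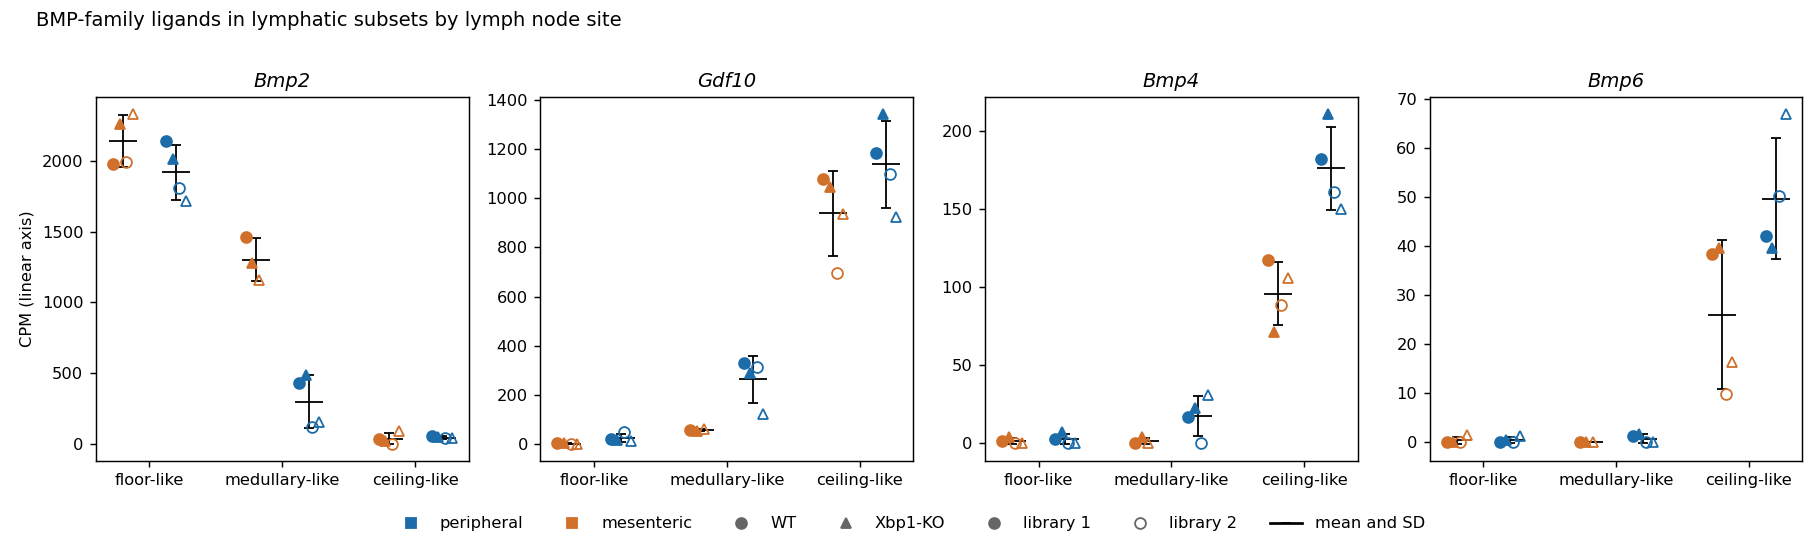
CPM on linear axes, each panel with its own scale, of Bmp2, Gdf10, Bmp4 and Bmp6 in floor-like, medullary-like and ceiling-like cells of mesenteric and peripheral nodes; each point is 1 pool, the shape gives the genotype, the fill the library, and bars are mean and SD. In medullary-like cells the mesenteric Bmp2 sums (1161 to 1465) lie above all peripheral ones (120 to 486), and the Gdf10 sums are the other way round.

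In floor-like cells 2 of 5 members passed between sites, with 13.4% of all genes. Gdf10 was low throughout but higher in peripheral nodes, at 21, 17.7, 50 and 11 CPM against 3.54, 3.49, 0 and 0 CPM in mesenteric nodes (3.28 ± 0.66, edgeR adjusted p = 0.00153). No mesenteric value reached a peripheral one, but 0 UMIs among 126526 in the WT mesenteric sum of library 2 allow up to 23.7 CPM. In the Postn cluster the peripheral sums were at 11.1 to 53.8 CPM. Both mesenteric sums there held 0 UMIs, which allow up to 28.2 and 29.8 CPM when each is read alone. A site difference was not tested within this cluster. In the Ccl20 cluster the peripheral sums were 19.4 and 73.1 CPM, from 14 UMIs, against at most 4.36 CPM, where 0 UMIs in 1 mesenteric sum allow up to 26.5 CPM. Ackr4 was at 0 to 13 CPM in peripheral and 0 to 6.97 CPM in mesenteric floor-like sums. Without library 1 and at Leiden resolution 1.5 Gdf10 fell under the filter on low counts, DESeq2 gave it no adjusted p, and without library 2 its difference was 2.27. Eng was lower in peripheral floor-like cells (129 to 141 CPM) than in mesenteric ones (142 to 234 CPM), by -0.61 ± 0.16 (edgeR adjusted p = 0.0100). Without library 1 this was -0.30 with edgeR adjusted p = 0.637, and at Leiden resolution 1.5 it was -0.46 with 0.0804. Bmp2 differed less, 1717 to 2142 against 1975 to 2331 CPM, with overlap (-0.32 ± 0.12, 0.0828). With library as a block it had the same size with edgeR adjusted p = 0.00743, among 3 members called there with 15.4% of all genes.

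In ceiling-like cells 1 of 8 members passed, with 1.41% of all genes. Bmp4 was at 150 to 211 CPM in peripheral and 71.3 to 117 CPM in mesenteric sums, without overlap (0.76 ± 0.19, edgeR adjusted p = 0.0471). The call was lost in 6 of the alternatives tried, with adjusted p of 0.0503 to 0.699 at log2 differences of 0.57 to 0.76; the lowest difference and the highest p came without library 1. With library as a block 2 members were called, with 4.2% of all genes; the other was Id3, lower in peripheral (231 to 280 CPM) than in mesenteric nodes (309 to 516 CPM), at -0.62 ± 0.15 without overlap (edgeR adjusted p = 0.0101, against 0.0778 without the block). Gdf10 in ceiling-like cells was at 922 to 1343 CPM in peripheral and 698 to 1077 CPM in mesenteric sums, which overlapped (0.23 ± 0.15, 0.522).

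The size of the tissue difference itself differed between subsets, by interaction terms that were added after these values had been seen. For Bmp2 the difference was larger in medullary-like than in floor-like cells by 1.63 ± 0.21 (floor minus medullary, edgeR adjusted p = 1.49e-06; 1 of 6 members and 2.84% of all genes called), and by 2.55 without library 1. It was also larger than in ceiling-like cells (-1.74 ± 0.30, 4.74e-05), as it was for Gdf10 (2.09 ± 0.24, 3.29e-10). Bmp4 passed narrowly (3.27 ± 0.96, 0.0467) and did not when either library was left out, nor in DESeq2 (3.28, adjusted p = 0.246). Without pools as a block the Bmp2 term against ceiling-like cells was -1.70 with edgeR adjusted p = 0.07. Of 8 members 3 were called in that comparison, with 2.36% of all genes.

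Of the blood subsets, only capillary and high endothelial-like cells were tested between sites. In capillary cells 0 of 8 members passed in edgeR (2.92% of all genes did), with 1 member at an unadjusted p under 0.05 and 0 by DESeq2. That member was Bmp6, at 85.2, 35.6, 48.5 and 84.8 CPM in mesenteric and 9.08, 41.7, 37.3 and 35.8 CPM in peripheral sums (-1.35 ± 0.37, edgeR adjusted p = 0.0564). With library as a block it was called (-1.39 ± 0.34, 0.00893; 6.53% of all genes). The makeup of the subset moved with the site: the cluster led by Fabp4, which held most Bmp6, made up 63.8% of mesenteric and 25.3% of peripheral capillary cells. Within that cluster Bmp6 was at 69.8 to 164 CPM in mesenteric and 116 to 200 CPM in peripheral sums, so the direction of the means was the opposite. In high endothelial-like cells 0 of 5 members passed (0.235% of all genes), with 0 at an unadjusted p under 0.05 and 0 by DESeq2; Bmp4 had the largest difference of these members, 1.12 ± 0.58.

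Xbp1 encodes a factor that raises secretory capacity when unfolded proteins build up. Between Xbp1-KO and WT pools no member passed the threshold in any of the 5 subsets tested, and few genes of any kind did. By edgeR 0 of 5 members were called in floor-like cells (0.177% of all genes), 0 of 8 in ceiling-like (0.0%), 0 of 5 in medullary-like (0.173%), 0 of 8 in capillary (0.0%) and 0 of 5 in high endothelial-like cells (0.0%). DESeq2 called 0 members in each. The labels give no sex, and sex-linked genes moved with genotype within each library: Xist, expressed from the inactive X chromosome, was at 3.2 to 6.48 CPM in WT and 481 to 1170 CPM in Xbp1-KO sums of library 1, but at 500 to 1120 and 0 to 1.92 CPM in library 2. The Y-linked Ddx3y was the other way round, at 67 to 116 and 0 to 1.45 CPM in library 1 and at 0 and 73.3 to 124 CPM in library 2. Within 1 library genotype and these genes' pattern cannot be told apart; over both they were crossed. At an unadjusted p under 0.05 there was 1 member in floor-like, 1 in medullary-like and 1 in high endothelial-like cells. In floor-like and medullary-like cells it was Id3. In Xbp1-KO medullary-like cells Id3 was at 107, 136, 42.8 and 159 CPM, and in WT at 63.5, 75.6 and 53.4 CPM (0.80 ± 0.23, edgeR adjusted p = 0.256), with overlap. In floor-like cells it was at 52.3 to 99.3 CPM against 15.8 to 58.8 CPM, higher in each of 4 matched pairs of pools (0.53 ± 0.21, 0.624). In high endothelial-like cells it was Id1, lower in Xbp1-KO (117 to 350 CPM) than in WT (258 to 375 CPM) by -0.74 ± 0.25 (edgeR adjusted p = 1), with overlap. By site it was at 375 and 353 CPM in WT and 117 and 138 CPM in Xbp1-KO peripheral sums (70 and 45 UMIs), and at 258 and 374 against 256 and 350 CPM in mesenteric ones. The main ligands differed by 0.04 ± 0.12 for Bmp2 in floor-like and 0.04 ± 0.15 for Gdf10 in ceiling-like cells. In floor-like cells of mesenteric nodes Bmp2 was at 2263 and 2331 CPM in Xbp1-KO and 1975 and 1992 CPM in WT sums, without overlap. In peripheral nodes it was at 2012 and 1717 against 2142 and 1805 CPM, lower in Xbp1-KO within each library. Whether the genotype difference depended on the site was not tested for these genes.

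**Figure D4:**
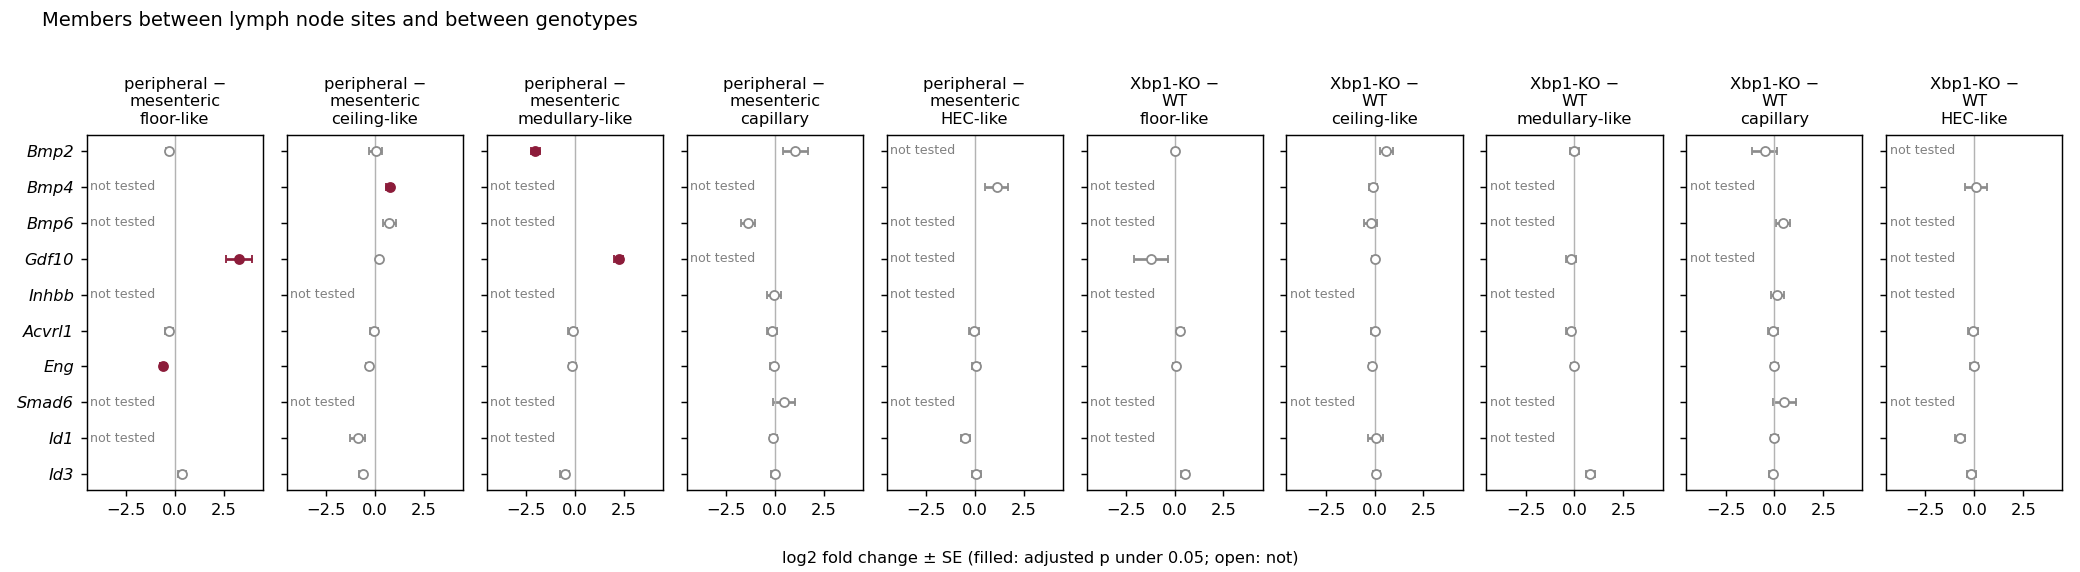
Log2 fold change ± SE from edgeR for each member between lymph node sites (first 5 panels) and genotypes (last 5 panels) in 5 subsets; filled points have an adjusted p under 0.05. Filled points appear for Gdf10 and Eng in floor-like, Bmp4 in ceiling-like and Bmp2 and Gdf10 in medullary-like cells between sites, and for no member between genotypes.

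Of 72 further genes of the pathway, 40 could be tested between lymphatic and blood endothelium; 18 were higher in lymphatic cells and 14 lower, where 59.6% of all genes tested differed. Of 6 further ligand genes tested 5 were higher and 1 lower (median log2 difference 4.12), and of 8 further targets 0 were higher and 6 lower (median -3.23). Bmp8a resembled Bmp2 in place: it was at 83.7 to 135 CPM in floor-like sums and 13.3 to 77.5 CPM in medullary-like ones, while ceiling-like cells held 1 UMI. Lymphatic cells had 877 Bmp8a UMIs and blood cells 0, a difference of at least 271-fold. Its near-identical neighbour Bmp8b could share reads with it, so the assignment between both is uncertain. Tgfb3 was higher in lymphatic cells (5.28 ± 0.26, edgeR adjusted p = 1.1e-11) and Tgfb2 lower (-1.62 ± 0.12, 2e-09).

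Among the further targets, Atoh8 and Hey1, transcription factor genes, and Smad7, the other inhibitory SMAD, were lower in lymphatic cells (-4.33 ± 0.30, -4.26 ± 0.14 and -3.35 ± 0.11; edgeR adjusted p = 1.16e-09, 9.5e-14 and 5.5e-14). Between floor-like and ceiling-like cells 29 of the further genes were tested, 8 higher in the floor and 14 lower, where 41.9% of all genes differed. Id2 moved against Id1 and Id3: it was at 153 to 300 CPM in floor-like and 18.2 to 51.7 CPM in ceiling-like sums, without overlap (2.86 ± 0.14, 2.27e-20). The type II receptor gene Bmpr2 was lower in the floor (-0.93 ± 0.10, 4.24e-10), as were Tgfbr2 (-2.63 ± 0.11) and Tgfb2 (7 UMIs against 376; ratio 66.7, counting interval 32.1 to 167). Smad4, the shared partner of the signalling SMADs, was higher (1.65 ± 0.10, 1.01e-16). Mgp, a secreted BMP-binding protein, held 0 UMIs in floor-like cells and 0 to 187 CPM in ceiling-like sums.

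Floor-like against medullary-like cells gave 6 higher and 8 lower of 26 (28.6% of all genes differed), and ceiling-like against medullary-like cells 9 and 8 of 27 (38.2%). Against capillary cells it was 4 higher and 9 lower of 24 in high endothelial-like (34.3% of all genes), 10 and 6 of 23 in arterial-like (20.6%), and 4 and 0 of 12 in venous-like cells (17.3%). Smad7 in arterial-like cells was at 244 to 316 CPM against 68.2 to 162 CPM in capillary cells, without overlap (1.23 ± 0.13, edgeR adjusted p = 4.36e-09), the same side as Smad6. Tmem100, a target of the ALK1 receptor, held 289 UMIs in arterial-like and 3 in capillary cells (ratio 209, counting interval 70.9 to 1020). Hey1 was lower in high endothelial-like than in capillary cells (-4.11 ± 0.39, 4.85e-11).

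Between sites, 5 of 25 further genes were higher in peripheral floor-like cells and 0 lower (13.4% of all genes differed), 1 and 0 of 24 in ceiling-like (1.41%), 3 and 3 of 22 in medullary-like (4.67%), 2 and 1 of 22 in capillary (2.92%) and 0 of 17 in high endothelial-like cells (0.235%). Bmp8a and Id2 were lower in peripheral medullary-like cells, as Bmp2 was (-1.73 ± 0.30, edgeR adjusted p = 7.25e-05, and -0.83 ± 0.23, 0.0193). Between genotypes 1 further gene was called in 1 subset: Gdf15, a stress-induced member of the TGF-beta family, was higher in Xbp1-KO medullary-like cells (2.68 ± 0.39, edgeR adjusted p = 9.57e-05), where 0.173% of all genes were called.

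Over the 8 named subsets, the patterns most like that of each member were sought by Pearson's r of mean log levels among 10460 genes; the subsets share libraries, and r is a description. Id1 was closest to S100a13 (0.996), Ube2s (0.993) and Id3 (0.987), and Id3 to Plcb1 (0.989), Id1 (0.987) and S1pr4 (0.986). Bmp2 was closest to Zfp709 (0.986), Postn (0.977) and Tmem123 (0.976), and Gdf10 to Dennd2a (0.985), Psmd6 (0.984) and Prkcq (0.983). Acvrl1 was closest to Arpc1b (0.980), Nudt14 (0.977) and Epas1 (0.972), and Eng to C130074G19Rik (0.981), Clec14a (0.980) and Hfe (0.978).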

How the data were processed

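Sorted endothelial cells of mouse lymph nodes were sequenced as 2 droplet 3′ libraries (10x Genomics), each with 4 hashtag pools. The deposited values are raw UMI counts for each gene in each cell, which the authors obtained with Cell Ranger (version 6.0.1, per the file headers); the submitters' processing notes list Cell Ranger 6.1 and build mm10. Barcodes were 7709 and 2903, with median depths of 3655 and 4319 UMIs, and 3 barcodes were shared by both libraries. The labels name more than one kit version.

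Pools were called with HTODemux (Seurat 5.3.0, quantile 0.99), cells needed 500 genes or more and no more than 10% of UMIs from mitochondrial genes, Scrublet took out 65 and 4 doublets beyond those with several tags, and 9275 cells were clustered (scanpy 1.11.5, 2000 variable genes less the pathway genes, 30 components, 15 neighbours, Leiden resolution 1). Scrublet marked only 25.5% and 4.62% of the barcodes with several tags, so doublets within 1 pool can remain, above all in library 2. RNA taken up by droplets from outside their cell was not estimated or removed. Subsets were named by listed markers. Cluster names are rebuilt here. UMIs were summed per pool and subset and tested with edgeR 4.0.16 (TMM, filterByExpr, quasi-likelihood, Benjamini-Hochberg over all genes tested, threshold 0.05). Subset contrasts had pools as blocks. Site and genotype contrasts compared means of the 4 groups without a library term, or, with 1 library left, additive site and genotype terms (1 residual degree of freedom); library as a block was an alternative, printed beside a result where it changed the call. The library number marks a shared run: in 17 of 18 pairs of groups, deviations of same-library pools correlated above 0.1 (r from 0.071 to 0.397). DESeq2 1.42.0, other size factors, no filter, each library left out, Leiden resolution 1.5 and another hashtag rule (top tag at least 5 times the second and at least 10 counts) were the other alternatives.

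Named genes were all 10 members and, from lists of 72 other pathway genes, counts per comparison with examples past the threshold. The members and lists were chosen with earlier results of these data known. Counting intervals are at 95%, a count of 0 allows 3 counts, and both cover counting error only. In all 19 comparisons were made, 17 planned and 2 interactions added later. The tests were also run on simulated data, and no error rate from that run is given here.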

Additional observations from a re-analysis of the deposited data

Results flagged for a closer look

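The difference of peripheral from mesenteric nodes was not the same size in all lymphatic subsets, by interaction terms in edgeR. For Bmp2 the log2 site difference in floor-like cells was above that in medullary-like cells by 1.63 ± 0.21 (adjusted p = 1.49e-06; 2.55 without library 1), and that in medullary-like cells was below that in ceiling-like cells by -1.74 ± 0.30 (4.74e-05). Without pools as a block this last term was -1.7 and not called (edgeR adjusted p = 0.07). For Gdf10 the medullary-like site difference exceeded the ceiling-like one by 2.09 ± 0.24 (3.29e-10). For Bmp4 it exceeded it by 3.27 ± 0.96 (0.0467), on 44 medullary-like UMIs, and this was not called when either library was left out (2.87 to 5.13, adjusted p = 0.14 and 0.548) or in DESeq2 (3.28, 0.246). These comparisons were added after the levels had been seen.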

How the results depend on the processing

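Over the 51 member results that passed the threshold, 405 values under alternatives were computed: 379 kept direction and side of the threshold, 25 kept direction only, and 1 turned, Eng in high endothelial-like minus capillary cells under the other hashtag rule (-0.15). Of the members that did not pass or were not tested, 14 results were called under 1 or more alternatives, in 23 values. Beside those given with the results these were Id3 in floor minus medullary cells (-0.51, other hashtag rule), Acvrl1 in ceiling minus medullary cells (0.41, Nts cluster joined) and in high endothelial minus capillary cells (-0.72, other hashtag rule), and, in arterial minus capillary cells, Bmp2 (-1.03 without the filter, -1.30 without library 2), Bmp6 (0.85, Leiden 1.5) and Inhbb (-1.12 at Leiden 1.5, -1.37 under the other hashtag rule). Between sites they were Bmp6 (2.03) and Id1 (-1.72) in ceiling cells without library 1, Id1 (-1.27) and Id3 (-0.85) there with the Nts cluster joined, Id3 there at Leiden 1.5 (-0.74), Bmp2 in capillary cells without library 2 (1.44) and Bmp6 there without the filter (-1.28) and without library 2 (-1.66). The causes were not tested, except where fewer genes or pools were tested.

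Counts of genes called were 6902 between lymphatic and blood cells, 3874 for floor minus ceiling, 2513 for floor minus medullary, 3154 for ceiling minus medullary, 2505 for high endothelial minus capillary, 1145 for arterial minus capillary and 517 for venous minus capillary; between sites 1139 in floor, 110 in ceiling, 325 in medullary, 192 in capillary and 14 in high endothelial cells; between genotypes 15, 0, 12, 0 and 0 in the same order; and 249 and 195 for the interactions of floor and of ceiling with medullary cells. Without pools as a replicate block, high endothelial minus capillary had 3 members called, arterial minus capillary 744 genes, venous minus capillary 1 member, and the interactions 88 and 87 genes with 1 member in the ceiling one; fewer members then passed the filter on low counts. With library as a replicate block, sites gave 328 genes and 2 members in ceiling, 429 genes and 1 member in capillary and 32 genes in high endothelial cells, and genotypes 29, 4, 19 and 10 genes in floor, ceiling, medullary and capillary cells. Member results that fell under the filter without the block could not be compared. Among the others, the calls that changed with the block were those named beside the results, Id1 in venous-like cells (-1.21 without it, edgeR adjusted p = 0.0534) and Bmp4 in the ceiling interaction (3.41, 0.0876).

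DESeq2 gave 337 genes for venous minus capillary; between sites 462 genes and 1 member in floor, 58 genes and 0 members in ceiling, 79 genes and 1 member in medullary and 119 genes in capillary cells; between genotypes 1 gene in ceiling and 1 in medullary cells; and 81 and 74 for the interactions. Leiden resolution 1.5 gave 794 genes for venous minus capillary, 0 members in floor and 114 genes in capillary cells between sites, 1 gene in ceiling cells between genotypes and 415 for the floor interaction. Without the filter, sites gave 233 genes in ceiling, 336 genes and 1 member in capillary and 67 genes in high endothelial cells, and genotypes 38, 12, 27, 9 and 1 genes in the 5 subsets. With the Nts cluster joined to ceiling-like cells, an alternative chosen after seeing the data, ceiling cells had 193 genes and 2 members called between sites and 1 gene between genotypes. Other size factors left 0 members in ceiling cells between sites. The other hashtag rule left 0 members there, 3 genes in high endothelial cells between sites and 1 gene in ceiling cells between genotypes.

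Leaving out a library gave 4184 to 5910 genes between lymphatic and blood cells, 2278 to 3365 for floor minus ceiling, 669 to 2078 for floor minus medullary, 1191 to 2616 for ceiling minus medullary, 1257 to 1947 genes and 4 to 5 members for high endothelial minus capillary, and 546 to 767 for arterial minus capillary. For sites and genotypes it also changed the model, to additive terms on 4 sums with 1 residual degree of freedom. Between sites it gave 124 to 729 genes and 0 to 2 members in floor, 39 to 268 genes and 1 to 2 members in ceiling, 27 to 456 genes and 0 to 2 members in capillary and 25 to 29 genes in high endothelial cells. Between genotypes it gave 6 to 13 genes in floor, 7 to 14 in ceiling, 30 in medullary (without library 2), 2 to 20 in capillary and 17 to 59 in high endothelial cells, where genotype goes with sex-linked genes within 1 library. It gave 31 to 157 and 46 to 194 for the interactions. Venous minus capillary (1 pool left) and the site and genotype contrasts within medullary-like cells (no residual degrees of freedom) could not be fitted without library 1. Members with under 20 UMIs in a subset were limited by depth.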
